A study of Mus musculus with 25 samples.

Results

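The change in chromatin accessibility of fetus/graft-specific CD8+ T cells with pregnancy was compared between mice that had rejected a paternal skin graft and mice that had not. The quantity is the difference of the changes, peak by peak: the log2 change from Sensitized to S+P C5 minus the log2 change from Naive to N+P C5. It rests on 14 of the 25 ATAC-seq libraries of the series (3 Naive, 3 N+P C5, 4 Sensitized and 4 S+P C5) and was computed for all 13527 peaks. A positive value means that the log2 change was the larger in sensitized mice, and a negative value that it was the larger in naive mice. Of the 13527 peaks, 411 (3.04%) were called higher and 396 (2.93%) lower.

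All animals were female C57BL/6 mice, and all cells were CD8+ T cells from spleen and pooled lymph nodes of individual mice, sorted with a tetramer that carries an OVA peptide on H-2Kb (T_FGS). Naive mice had no graft and no mating. Sensitized mice had rejected a skin graft of 2W-OVA.BALB/c donors, some weeks before the cells were taken or mating began. N+P mice were mated without a graft, and S+P mice after one, in both cases with 2W-OVA.BALB/c males, and their cells were taken shortly after delivery. C5 is the PD1+CD73+ fraction of the cells of a mated animal. The labels give no age, and no batch of animals or sorts. The labels name no gate on PD1 or CD73 for the unmated groups, so pregnancy and the gate cannot be told apart within either arm. The mated cells of both arms were gated alike.

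ATAC-seq measures how often a transposase cuts a stretch of DNA, which it does where nucleosomes leave it open. Promoters of expressed genes are open in most cells, whereas distal elements (enhancers and silencers in introns and between genes) differ more between cell states. In CD8+ T cells that meet antigen for a long time, distal elements near genes of co-inhibitory receptors and of transcription factors such as Tox, Nr4a and Nfat family members are known to open, and elements of naive and memory cells near Tcf7, Bach2 or Satb1 to close. Such cells are called exhausted or dysfunctional, and the state is known to be held in part by chromatin.

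The 14 libraries held 5361390 (S+P C5 replicate 2) to 25419715 counts in peaks (S+P C5 replicate 1), with 65.2% to 68.8% of the counts in promoter peaks. By peaks within 1000 bp of the gene's own start, 5 of 8 CD8 T cell marker genes were open in the set (Cd3d, Cd3e, Cd3g, Cd8a and Lck), with a summed normalized count of 1303 to 1969 per library. None of the markers of B cells (0 of 7), myeloid cells (0 of 7), NK cells (0 of 4), CD4 T cells (0 of 3) or erythroid cells (0 of 4) had such a peak. Farther from the start, 8 peaks were nearest to 2 NK cell genes, 2 to 1 CD4 T cell gene and 1 to 1 erythroid gene. No pair of replicates was close enough to be 1 library counted 2 times. The chi-square per degree of freedom between pairs of libraries, which grows with depth, ran from 2.81 to 14.7 in Naive, from 3.12 to 5.79 in N+P C5, from 6.23 to 14.5 in S+P C5 and from 5.07 to 69.6 in Sensitized, which held the pair with the highest value. At many of the loci below, Sensitized replicates 1 and 2 stood on one side and replicates 3 and 4 on the other, so values without replicates 3 and 4 are given for the named peaks that lost their call without them.

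Tests compared counts per peak in 1 DESeq2 model over all 25 libraries, and a peak was called at a Benjamini-Hochberg adjusted p under 0.1 and an absolute log2 difference over 0.9. Values per library are counts divided by the library's size factor (normalized counts), and effects are log2 values ± SE. Called peaks are thus chosen on the difference, and their size and direction describe them without supporting it. In all, 807 peaks (5.97%) were called, near 667 genes. At any fold, 4225 (31.2%) passed the adjusted p, 2025 of them higher and 2200 lower. The median difference over all peaks was -0.02. The split between higher and lower depended on the scaling. Offsets fitted by loess to abundance gave 201 higher and 679 lower, offsets fitted to GC content gave 506 and 276, and scaling by total counts gave 500 and 320.

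**Figure D1:**
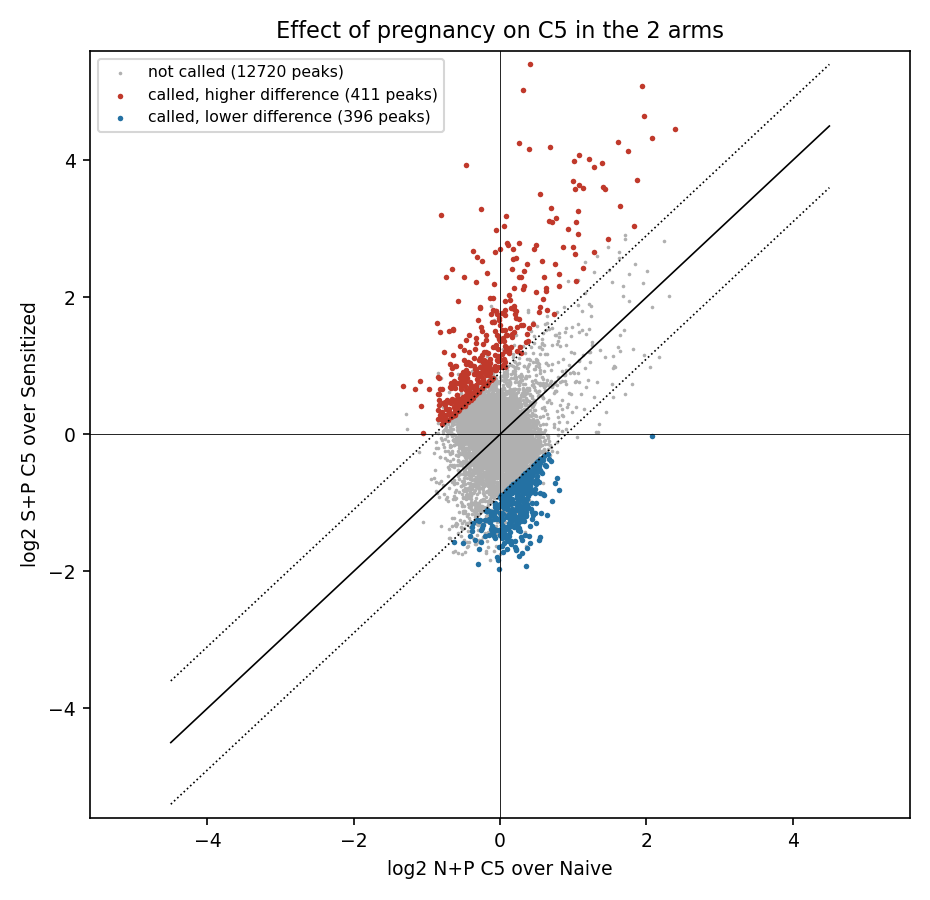
Each point is 1 of 13527 peaks, with the log2 effect N+P C5 over Naive on the x axis and S+P C5 over Sensitized on the y axis; the solid line marks equal effects and the dotted lines a difference of 0.9. The 411 red peaks lie above the upper dotted line and the 396 blue peaks below the lower one, and both clouds are stretched along the y axis more than along the x axis.

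In most called peaks the larger of the 2 changes was that of the sensitized arm. The change in S+P C5 was the larger by size in 329 of the 411 higher peaks (80.0%) and in 365 of the 396 lower peaks (92.2%), against 57.0% of all peaks. The median change among the higher peaks was 1.01 from Sensitized to S+P C5 and -0.26 from Naive to N+P C5. Among the lower peaks the medians were -0.98 and 0.22. The fitted change was above 0 in the sensitized arm for all 411 higher peaks, and in the naive arm it was below 0 for 288 and above 0 for 123. For all 396 lower peaks it was below 0 in the sensitized arm, and in the naive arm it was above 0 for 332 and below 0 for 64. DESeq2's filter on low counts left 3824 of 13527 peaks with an adjusted p in N+P C5 against Naive, and 58 of the 807 called ones. Of those, 0 were called there, and 1 peak of the whole set was. With the filter off, 24 peaks were called in that arm, 5 of them among the 807, and edgeR called 0. At an unadjusted p under 0.05 there were 2361 of all peaks (17.5%), 111 of the higher (27.01%) and 44 of the lower (11.1%) in DESeq2, and 2260, 109 and 39 in edgeR. S+P C5 against Sensitized had an adjusted p for all peaks and called 912, among them 239 of the higher and 231 of the lower. The 1 peak called in N+P C5 lay 136014 bp from the start of Cd47, which encodes a signal against phagocytosis, and its difference between the arms was -0.74 ± 0.48 (adjusted p 0.244).

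By level, S+P C5 stood highest of the 4 group means in 387 of the 411 higher peaks (94.2%, against 36.2% of all peaks) and lowest in 376 of the 396 lower peaks (94.9%, against 37.9%). N+P C5 stood at the other end in 258 (62.8%, against 29.02%) and 279 (70.5%, against 31.1%). The choice of peaks on this difference favours such an order, so these counts describe the peaks only. For the higher peaks the median normalized count was 363 in S+P C5, against 169 in Sensitized, 124 in Naive and 105 in N+P C5. For the lower peaks the order turned, with 202 in S+P C5 against 396, 447 and 499. Over all peaks the medians lay between 471 and 483 in these groups. All 4 S+P C5 libraries lay outside the range of the Sensitized libraries in 259 of the higher peaks (63.0%) and 147 of the lower peaks (37.1%), against 14.7% of all peaks. The N+P C5 and Naive libraries were apart in 30.4% and 20.7%, against 26.2%.

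The same peaks were also read in a comparison that used none of the 14 libraries. C7 is the PD1+CD73- fraction and C4 the PD1- fraction of the same kind of animal (4 libraries each, replicate numbers shared with S+P C5). S+P C7 was called above S+P C4 in 160 of the 411 higher peaks (38.9%), against 2.48% of all peaks, and below it in 1. Among the 396 lower peaks, S+P C7 was called below S+P C4 in 206 (52.0%), against 5.25% of all peaks, and above it in 0. The median log2 change from C4 to C7 was 0.69 in the higher peaks, -0.94 in the lower peaks and 0.01 in all peaks. The cells came from animals of 1 treatment, so these values compare gates within S+P mice and do not test the difference between the arms.

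Each named peak below was also called in all 14 fits that leave out 1 library, unless stated, and 305 peaks in all met that condition (2.25% of 13527, 183 higher and 122 lower). The 10 with the smallest adjusted p on the higher side, 1 for each nearest gene, had differences of 1.35 to 4.01 and lay in introns (6) or between genes (4). None was a promoter. In all 10, S+P C5 did not overlap Sensitized, against 14.7% of all peaks, but these libraries chose the 10. All 10 were called under each of 26 alternatives, which include the 14 fits that chose them.

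The smallest p belonged to a peak in an intron of Tigit, which encodes a co-inhibitory receptor of T and NK cells (chr16:43481871-43482667 of GRCm39). Its normalized counts were 44.1, 26.5 and 51.1 in Naive, 44.3, 45.2 and 48.1 in N+P C5, 72.1, 56.5, 57.3 and 77.6 in Sensitized and 339, 386, 369 and 315 in S+P C5. The 2 naive-arm groups overlapped, Sensitized lay slightly above both, and the 4 S+P C5 libraries stood above these 3 groups. S+P C7, a gate of S+P mice outside this contrast, had 324, 237, 224 and 225 there, so its highest library lay within the S+P C5 range. In such bulk libraries, more cells with an open site and a more open site in each cell cannot be told apart. The change was 2.41 ± 0.19 in the sensitized arm and 0.16 ± 0.27 in the naive arm, a difference of 2.25 ± 0.33 (adjusted p 9.25e-08). Under loess offsets it was 1.37.

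A peak 101168 bp from Fasl, the gene of the death ligand with which cytotoxic cells kill, was nearly closed in the other 3 groups of the contrast (chr1:161514626-161515189). Naive had 26.2, 17.7 and 19.6, N+P C5 24.2, 37.0 and 14.4, Sensitized 10.96, 8.63, 13.2 and 22.8, and S+P C5 291, 471, 173 and 137. It was open in S+P C7 as well, with 223, 320.0, 96.1 and 92.2. The difference was 4.00 ± 0.70 (adjusted p 1.66e-05), and 2.16 (adjusted p 0.0369) under loess offsets. A second peak 59759 bp from Fasl (chr1:161556119-161556514) had 97.0 to 344 in S+P C5 and at most 58.3 in the other 3 groups, with a difference of 3.07 ± 0.70 (adjusted p 0.00145) that was 1.58 (adjusted p 0.0395) under loess offsets.

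The other 8 on the higher side lay nearest to Shc4 (2.73 ± 0.43), Tlk1 (3.03 ± 0.50), ENSMUSG00000144241 within an intron of Prrc2b (3.11 ± 0.53), Cyrib within an intron of Asap1 (1.82 ± 0.31), Cdk17 (2.30 ± 0.42), Utrn (1.35 ± 0.25), Prss8 within an intron of Kat8 (4.01 ± 0.74) and Gtsf1l (2.60 ± 0.48). Under loess offsets the value near ENSMUSG00000144241 was 1.84 and that near Prss8 2.56. The peak near Gtsf1l had the highest level of these, with 932, 1122, 785 and 702 in S+P C5. In the naive arm it had 55.1, 71.8 and 71.9 in Naive and 110, 74.0 and 141 in N+P C5, an effect of 0.70 ± 0.37, and it had no adjusted p there. Cdk17 encodes a cyclin-dependent kinase, and its intron peak had 179, 147 and 95.3 in Naive and 65.4, 83.6 and 89.0 in N+P C5, the latter lower without overlap. S+P C5 had 205, 358, 208 and 146 there.

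**Figure D2:**
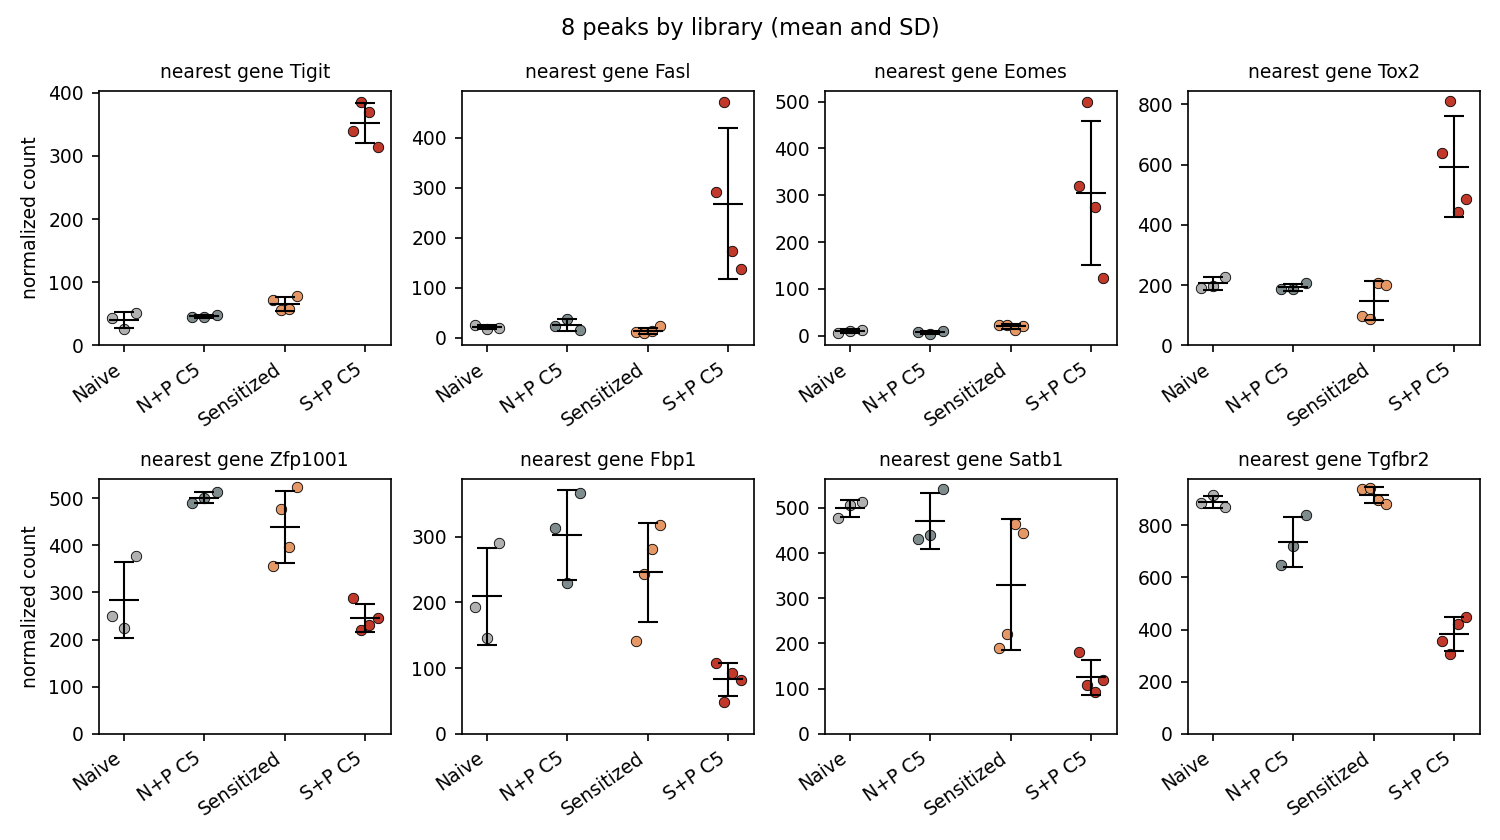
Normalized counts (y axis, linear) of 8 peaks in the 14 libraries, by group on the x axis; dots are libraries, the horizontal mark is the mean and the bar the SD. In the top row S+P C5 stands above the other 3 groups. In the bottom row its mean stands below theirs, but for Zfp1001 its libraries overlap those of Naive. For Satb1, Sensitized replicates 1 and 2 lie at 190 and 222 and replicates 3 and 4 at 464 and 445.

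The 10 peaks on the lower side had differences of -2.07 to -1.09, and 2 of them were promoters. In all 10 S+P C5 lay below Sensitized without overlap, but these libraries chose the 10. Of all peaks, 14.7% were apart in either direction. All 10 were called under each of 26 alternatives, which include the 14 fits that chose them. Naive-arm effects were between 0.11 and 0.81, so the fitted level was higher in N+P C5 than in Naive in each. For an intron peak of 3300002I08Rik nearest to the zinc-finger gene Zfp1001 (chr2:150148626-150149877), Naive had 251, 224 and 377, N+P C5 489, 500 and 513, Sensitized 357, 476, 396 and 524, and S+P C5 288, 220, 232 and 246. N+P C5 lay above Naive and S+P C5 below Sensitized, each without overlap, with effects of 0.81 ± 0.19 and -0.82 ± 0.16. The difference was -1.63 ± 0.25 (adjusted p 3.09e-07).

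Fbp1 encodes fructose-1,6-bisphosphatase, an enzyme of gluconeogenesis. Its intron peak (chr13:63027808-63028465) had 193, 146 and 290 in Naive, 313, 229 and 366 in N+P C5, 142, 242, 280 and 318 in Sensitized and 107, 49.0, 93.3 and 81.4 in S+P C5. The difference was -2.07 ± 0.43 (adjusted p 0.000405), the largest by size of the 10. The promoter peaks were those of Kctd12 (-1.09 ± 0.22, adjusted p 0.000177), which encodes an auxiliary subunit of GABA-B receptors, and of Zfp72 (-1.18 ± 0.25, adjusted p 0.000493). At the Kctd12 promoter Naive had 850, 768 and 1117, N+P C5 1210, 1218 and 1152, Sensitized 927, 1510, 1090 and 1217, and S+P C5 783, 647, 751 and 718. The remaining 6 lay nearest to ENSMUSG00000144237 within an intron of Htr1f (-1.54 ± 0.32), Panx1 within an intron of Hephl1 (-1.48 ± 0.31), Cxadr (-1.36 ± 0.29), Rapgef2 (-1.49 ± 0.32), Tiam1 (-1.62 ± 0.35) and Nup54 within an intron of Scarb2 (-1.52 ± 0.33). Tiam1 and Rapgef2 both encode exchange factors for small GTPases.

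Several genes held more than 1 called peak. At least 3 were called near each of 27 genes, and within these genes all called peaks were higher for 9, all lower for 13, and mixed for 5. All 6 peaks of Rapgef1, an exchange factor of Rap1 downstream of the T cell receptor, were called higher, by 1.00 to 1.63, and 2 of these 6 were called in each fit that left out 1 library. All 3 peaks nearest to Cxadr were called lower, by -1.46 to -1.20. Runx3, which sets the cytotoxic programme of CD8 T cells, had 3 of 6 peaks called higher, and 1 of these 3 was called in each fit that left out 1 library. Satb1, which organizes chromatin loops in T cells, had 5 of 12 called lower, 2 of them in each such fit. These genes were singled out after their values were seen.

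Across the groups of genes, the median difference and the called peaks are given beside those of all peaks, for which the median was -0.02 and the shares called were 3.04% higher and 2.93% lower. Promoters were 7670 of all peaks, with 69 called higher and 80 lower, and the other 5857 peaks had 342 and 316. Of the lists below, promoters were 7 of the 37 co-inhibitory peaks, 18 of 65 for exhaustion factors and 12 of 74 for effector genes. They were 13 of 135 for naive and stem-like regulators and 7 of 53 for transforming growth factor beta. The shares of these lists are thus not matched by position to those of all peaks. Every peak counts for the gene with the nearest start site, which does not show that it acts on it. Over all peaks, higher and lower calls were 506 and 276 under GC offsets and 201 and 679 under loess offsets. Without Sensitized 3 and 4 they were 190 and 129. Of the 37 peaks of 10 co-inhibitory receptor and sort marker genes, 4 (10.8%) were called higher and 0 lower, with a median of 0.41. Leaving out 1 library at a time kept this median between 0.25 and 0.49, loess offsets brought it to -0.02 and leaving out Sensitized 3 and 4 to 0.09. The CD8 T cell marker genes, a list not tied to exhaustion, had a median of 0.46 over 21 peaks, with 1 called higher and 0 lower, a median of 0.37 under loess offsets, and 0.25 with 0 calls without Sensitized 3 and 4. Besides Tigit, the called peaks were nearest to Ctla4, Btla and Cd5.

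Ctla4 encodes a receptor that competes with CD28. A peak that overlaps an exon of Ctla4 in the annotation, 25633 bp from its nearest start (chr1:60950459-60953126), had 428, 436 and 401 in Naive, 428, 454 and 494 in N+P C5, 352, 434, 569 and 627 in Sensitized and 1049, 1371, 995 and 1090 in S+P C5. The naive-arm groups overlapped, and S+P C5 lay above the libraries of the other 3 groups. S+P C7 had 1098, 1248, 792 and 619, so 2 of its libraries lay within the S+P C5 range. The difference was 1.06 ± 0.34 (adjusted p 0.0199). The Btla peak, in an exon of this co-inhibitory receptor of the immunoglobulin family (chr16:45072085-45072720), had 220, 221 and 244 in Naive and 241, 217 and 227 in N+P C5. Sensitized had 80.8, 90.2, 198 and 205, and S+P C5 had 475, 565, 368 and 335, for a difference of 1.60 ± 0.53 (adjusted p 0.0234). The Cd5 peak (0.91 ± 0.33, adjusted p 0.0348) kept its call in 9 of 14 fits without 1 library, and without Sensitized 3 and 4 it was 0.52.

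The genes of the 2 sort markers themselves did not pass. The promoter of Nt5e, which encodes CD73, had 346, 301 and 399 in Naive, 436, 476 and 536 in N+P C5, 334, 494, 454 and 448 in Sensitized and 419, 384, 371 and 419 in S+P C5. N+P C5 lay above Naive without overlap and the sensitized-arm groups overlapped. The difference was -0.58 ± 0.21 (adjusted p 0.0406), under the fold required. None of the 5 peaks nearest to Pdcd1, which encodes PD1, was called: the one with the smallest p had -0.58 ± 0.29 (adjusted p 0.135). Lag3 had no peak nearest to it and is not described.

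Of the 65 peaks of 16 exhaustion-associated transcription factors, 6 (9.23%) were called higher and 0 lower (median 0.15, between 0.11 and 0.20 without 1 library and 0.06 without Sensitized 3 and 4). Loess offsets gave 3 higher and 2 lower calls, and leaving out Sensitized 3 and 4 gave 3 and 0. Eomes encodes a T-box factor of memory and exhausted CD8 T cells. A peak 160585 bp from its start (chr9:118146456-118146934) had 5.51, 10.8 and 13.2 in Naive, 8.05, 4.11 and 9.62 in N+P C5, 23.7, 23.5, 12.6 and 20.1 in Sensitized and 320, 499, 276 and 124 in S+P C5. S+P C5 stood far above the other 3 groups, and its own libraries differed by several fold. S+P C7 had 354, 388, 275 and 111 at this peak. The difference was 4.40 ± 0.84 (adjusted p 0.000106), and 2.64 (adjusted p 0.0187) under loess offsets. The promoter of Tox2, a relative of Tox that acts with it in exhausted cells (chr2:163044744-163045785), had 192, 197 and 228 in Naive, 186, 186 and 206 in N+P C5, 98.6, 87.9, 206 and 202 in Sensitized and 638, 810, 442 and 484 in S+P C5. The difference was 2.09 ± 0.46 (adjusted p 0.000911).

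A peak 237283 bp from Maf, a factor that drives Il10 and is found in exhausted cells, had 11.02, 21.6 and 6.31 in Naive, 8.05, 5.48 and 10.8 in N+P C5, 129, 195, 37.3 and 63.5 in Sensitized and 320, 400, 283 and 222 in S+P C5. Every Sensitized library lay above every Naive library, and S+P C5 lay above the other 3 groups. In S+P C7 the counts were 336, 339, 287 and 189. The difference of 2.18 ± 0.73 (adjusted p 0.0247) lost its call in 1 of the 14 fits without 1 library, that without Naive replicate 2 (1.55, adjusted p 0.186), without Sensitized 3 and 4 (1.55, adjusted p 0.136) and under loess offsets (1.11, adjusted p 0.114). Tox itself, the central factor of the exhausted state, had 8 peaks and none was called. Its intron peak at chr4:6934862-6935444 differed by -0.75 ± 0.20 (adjusted p 0.00632), with 227, 219 and 221 in Naive, 227, 245 and 298 in N+P C5, 286, 329, 259 and 286 in Sensitized and 226, 170, 188 and 201 in S+P C5. For Nfatc1 the value was 0.83 ± 0.23 (adjusted p 0.00825), also under the fold required. For the Nfat5 promoter it was -0.03 ± 0.19 (adjusted p 0.927).

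Of the 135 peaks of 15 regulators of naive and stem-like T cells, 5 (3.70%) were called higher and 7 (5.19%) lower, with a median of -0.09. The direction turned with the scaling, as it did over all peaks. Under GC offsets 8 were higher and 4 lower (median 0.02), with 506 and 276 over all peaks. Under loess offsets there were 2 and 15 (median -0.11), with 201 and 679 over all peaks. Without Sensitized 3 and 4 the counts were 3 and 1 (median -0.03), and 3 and 3 of the calls held in all 14 fits without 1 library. Of the 7, 5 were those of Satb1. The one with the smallest p (chr17:52472594-52473425) had 478, 506 and 513 in Naive, 432, 440 and 541 in N+P C5, 190, 222, 464 and 445 in Sensitized and 181, 109, 93.3 and 119 in S+P C5. Sensitized replicates 1 and 2 stood at less than 1 in 2 of the Naive counts, and replicates 3 and 4 just below them. The difference was -1.30 ± 0.39 (adjusted p 0.0134), and without Sensitized 3 and 4 it was -0.60 (adjusted p 0.248). Bach2, a repressor that keeps CD8 T cells quiescent, showed the same split of the Sensitized libraries. Its intron peak had 1364, 1279 and 1177 in Naive, 1094, 1212 and 1184 in N+P C5, 657, 668, 1052 and 930 in Sensitized and 428, 280, 415 and 335 in S+P C5. The difference of -1.05 ± 0.32 (adjusted p 0.0147) became -0.72 (adjusted p 0.169) without Sensitized 3 and 4 and, under GC offsets, -0.89, less than the fold required. On the higher side, Ets1, which encodes an ETS-family factor of T cells, had an intron peak with 1.70 ± 0.40 (adjusted p 0.00242), and S1pr1, whose product lets cells leave lymph nodes, a distal peak with 1.37 ± 0.33 (adjusted p 0.00261). A second distal peak of S1pr1 had the other sign, at -0.59 ± 0.16 (adjusted p 0.00627), under the fold required.

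Of the 74 peaks of effector genes, 11 (14.9%) were called higher and 1 (1.35%) lower, with a median of 0.37. Without Sensitized 3 and 4 there were 2 higher and 1 lower calls, and under loess offsets 5 and 1. That median ran from 0.21 to 0.64 without 1 library, was 0.11 under loess offsets and turned to -0.07 without Sensitized 3 and 4. Of the 11 higher calls, 3 held in all 14 fits without 1 library. The called peaks included those of Fasl and Runx3 and a peak 9043 bp from Ccl3, a chemokine of activated T cells, with 322, 290 and 319 in Naive, 252, 236 and 283 in N+P C5, 626, 487, 291 and 298 in Sensitized and 688, 779, 745 and 688 in S+P C5. That difference of 1.04 ± 0.31 (adjusted p 0.0138) became 0.65 (adjusted p 0.114) without Sensitized 3 and 4. The Ccl3 peak was called in 13 of the 14 fits without 1 library and lost its call without Sensitized replicate 3, where its 0.897 was just under the fold required. The lower call was an alternative promoter of Il12rb2, a subunit of the interleukin-12 receptor (-1.23 ± 0.34, adjusted p 0.00809), with 219, 224 and 315 in Naive, 255, 373 and 373 in N+P C5, 237, 319, 297 and 312 in Sensitized and 199, 110, 157 and 177 in S+P C5.

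In the transforming growth factor beta pathway, of 53 peaks of 11 receptors, Smads and their regulators, 6 (11.3%) were called lower and 1 (1.89%) higher, with a median of -0.10 (-0.15 to -0.04 without 1 library, -0.02 under GC offsets). Without Sensitized 3 and 4 the counts were 2 lower and 0 higher, under GC offsets 2 and 1, and under loess offsets 8 and 0. Of the 7 calls, 1, a lower one, held in all 14 fits without 1 library. A peak 193522 bp from Tgfbr2, the type II receptor (chr9:116197862-116198783), had 884, 917 and 871 in Naive, 647, 721 and 838 in N+P C5, 940, 942, 898 and 881 in Sensitized and 357, 306, 422 and 448 in S+P C5. The Sensitized libraries were close to each other here, and in both arms the mated cells lay below the unmated without overlap, by more in the sensitized arm. The difference was -0.97 ± 0.25 (adjusted p 0.00443), and 2 of the 14 fits without 1 library, and GC offsets (-0.81), put it under the fold required. Smad7, the inhibitory Smad, had 4 of 16 peaks called (3 lower, 1 higher), and that with the smallest p had -1.10 ± 0.28 (adjusted p 0.00353).

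Zinc-finger genes with a Zfp name formed the largest list. Of 289 peaks of 226 genes, 214 of them at a promoter of any gene, 17 (5.88%) were called lower and 2 (0.692%) higher. The median was -0.27, with 98 peaks lower and 20 higher at any fold. It stayed between -0.32 and -0.22 without 1 library, was -0.27 under loess offsets, -0.22 under GC offsets and -0.12 without Sensitized 3 and 4. The calls moved more. They were 6 lower and 5 higher under GC offsets (276 and 506 over all peaks). Under loess offsets they were 22 and 1 (679 and 201), and without Sensitized 3 and 4 they were 2 and 3 (129 and 190). The 214 promoter peaks of the list had a median difference of -0.24 and a median GC content of 55.2%, against 59.3% for all promoter peaks. Among all promoter peaks the median difference rose from -0.24 in the fifth with the lowest GC content to 0.22 in the fifth with the highest. The Zfp median of 55.2% falls among promoter peaks of 53.9% to 57.7%, where the median difference was -0.08. Of the 17 lower calls, 2 held in all 14 fits without 1 library, those near Zfp1001 and Zfp72.

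The other lists are given in less detail. The 76 peaks of cytokine receptor, Jak, Stat and Socs genes held 3 higher and 0 lower calls, with Stat3, a factor downstream of interleukin-6 and interleukin-10, at 2.11 ± 0.59 (adjusted p 0.00901; 1.34 under loess offsets). Chemokine receptor and homing genes had 4 higher and 1 lower of 76, with Cxcr5, the receptor of cells that enter follicles, at 1.84 ± 0.39 (adjusted p 0.00068), and a distal peak of Cxcr4 at 1.45 ± 0.42 (adjusted p 0.0116). Among interferon genes 2 of 49 were called higher and 1 lower. These 2 were near Ifnar1, a chain of the type I interferon receptor (1.76 ± 0.33, adjusted p 0.000106), and Irf2 (2.38 ± 0.49, adjusted p 0.000416), of which the latter was 1.08 under loess offsets (adjusted p 0.143). Histone and DNA modifier genes had 4 higher and 1 lower of 46, among them Kmt2a, a histone H3 lysine methyltransferase (2.17 ± 0.44, adjusted p 0.000287; 1.39 under loess offsets), and Hdac4 (1.97 ± 0.55, adjusted p 0.00846). T cell receptor signalling genes had 8 higher and 3 lower of 133, of which 1 and 3 held in all 14 fits without 1 library. Their counts were 0 and 2 without Sensitized 3 and 4, 4 and 5 under loess offsets and 11 and 2 under GC offsets. Co-stimulation genes had 2 higher and 3 lower of 60, none of which held in all 14 fits, and 0 and 0 without Sensitized 3 and 4. The 3 lower were all near Cd226, an activating receptor that shares ligands with Tigit. The Cd226 peak with the smallest p had -0.996 ± 0.35 (adjusted p 0.0305), kept its call in 11 of 14 fits and had -0.49 (adjusted p 0.346) without Sensitized 3 and 4 and -0.82 under GC offsets. AP-1 family genes had 1 higher and 4 lower of 45, of which 0 and 1 held in all 14 fits, and 0 and 0 without Sensitized 3 and 4. Cell cycle genes had 3 higher and 0 lower of 48 (0 and 0 under loess offsets and without Sensitized 3 and 4), Bcl2 family genes 0 and 1 of 21, oxidative phosphorylation genes 2 and 1 of 73, and NK-type receptor genes 0 and 0 of 21. The higher and lower calls without Sensitized 3 and 4 were 2 and 0 for the cytokine receptor list, 2 and 0 for interferon genes, 3 and 2 for homing genes, 0 and 0 for the Bcl2 family and 1 and 0 for oxidative phosphorylation. For cytosolic ribosomal protein genes 4 of 91 were called higher and 0 lower, and the 3 of these called in all 14 fits were peaks nearest to Rplp1 that lie between genes. Of the other genes named for description, Jak2 had an intron peak with 16.5, 15.7 and 22.1 in Naive, 42.3, 71.3 and 57.7 in N+P C5, 343, 289, 104 and 138 in Sensitized and 493, 617, 513 and 410 in S+P C5. The mated cells lay above the unmated in both arms without overlap, with a difference between the arms of -0.42 ± 0.60 (adjusted p 0.631). Stat5b had 0.72 ± 0.25 (adjusted p 0.0288), under the fold required, and Tnfsf4 had no peak nearest to it.

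**Figure D3:**
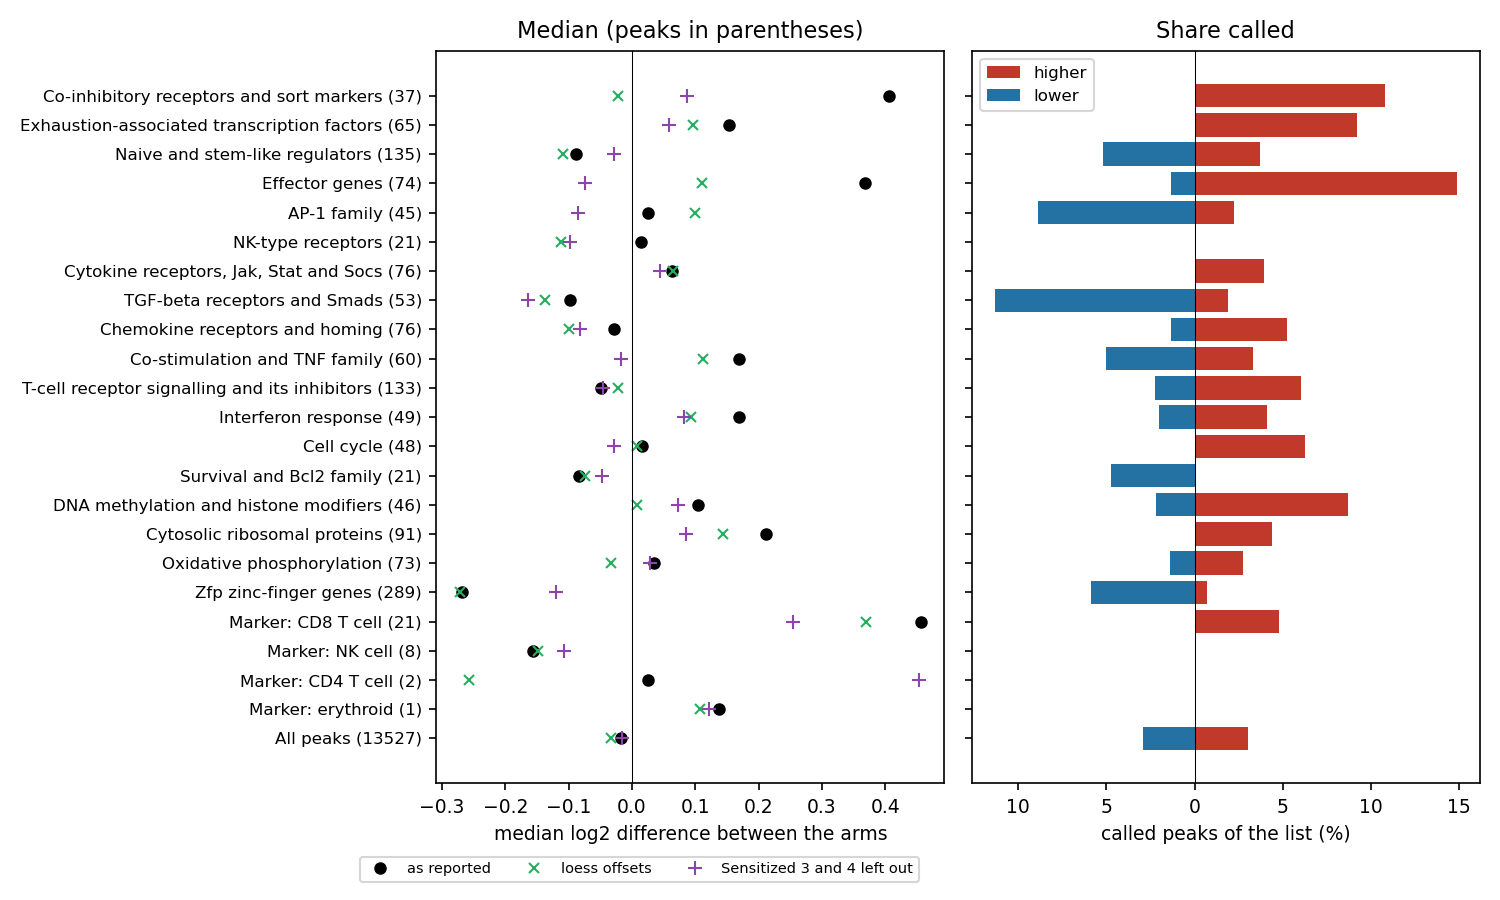
Left, the median log2 difference over the peaks of each gene list and of all peaks, as reported (dots), under loess offsets (crosses) and without Sensitized replicates 3 and 4 (plus signs); right, the percent of each list's peaks called higher (red) or lower (blue). The co-inhibitory and effector medians of 0.41 and 0.37 move to -0.02 and 0.11 under loess offsets, and to 0.09 and -0.07 without Sensitized 3 and 4, while all peaks stay near 0.

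By position, promoters (within 1000 bp of a transcript start) were 16.8% of the higher and 20.2% of the lower peaks, against 56.7% of all peaks. Introns held 46.2% and 41.4%, against 20.8%, and the space between genes 33.6% and 35.9%, against 19.6%. The higher peaks were shorter (median 683 bp) than the lower peaks (948.5 bp) and than all peaks (963 bp). Median GC content was 48.2% and 46.9%, against 54.4%. Calls followed abundance: in the fifth of peaks with the lowest mean count 270 were called higher and 127 lower, and in the fifth with the highest 2 and 27. The median difference was 0.18 in the former and -0.14 in the latter. The authors' reproducible peak lists per group, made from the same libraries, differ in length, and of all peaks 82.9% were in the S+P C5 list, 71.1% in Sensitized, 62.6% in Naive and 62.2% in N+P C5. Of the higher peaks these lists held 94.4%, 11.9%, 12.4% and 3.89%. Of the 411, 324 (78.8%) were in the S+P C5 list and in none of the other 3, against 16.03% of all peaks. Of the lower peaks the same lists held 24.5%, 60.6%, 60.9% and 80.1%, so the Naive share was near that of all peaks and the Sensitized share below it.

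Short motifs were searched on both strands in the central 300 bp of each peak, and shares are given for peaks outside promoters, of which 342 were called higher, 316 lower and 5857 tested. The AP-1 letters TGANTCA, which Fos, Jun and Batf proteins bind, were present in 97 of the higher peaks (28.4%), in 24 of the lower peaks (7.59%) and in 15.8% of all. Without 1 library the shares ran from 23.8% to 31.5% and from 7.02% to 8.62%. Without Sensitized 3 and 4, however, they were 21.0% and 21.4%. The T-box letters AGGTGTGA were present in 6.14% of the higher, 0.949% of the lower and 3.02% of all peaks, and the Nr4a letters AAAGGTCA in 4.97%, 0.633% and 1.59%. Without 1 library, the T-box share of the lower peaks ran from 0.551% to 3.65%, the latter without Sensitized replicate 3 and above that of all peaks, and the Nr4a share from 0.550% to 1.55%. Without Sensitized 3 and 4 the T-box shares were 5.68% and 8.55%, so that their order turned, and those of Nr4a 4.55% and 1.71%. The RUNX letters TGTGGTT were in 19.9%, 24.1% and 20.1%, the NFAT letters TGGAAAA in 9.65%, 6.33% and 7.29%, the TCF/LEF letters CTTTGAT in 9.06%, 8.86% and 7.21%, and the IRF letters GAAANTGA in 11.1%, 6.65% and 8.52%. The FOX letters TGTTTAC were in 5.85%, 4.43% and 5.16%. ETS (CCGGAAGT) and KLF/SP (CCCCGCCC) letters, which are common in promoters, were in 0.585% and 2.34% of the higher, 0.949% and 1.90% of the lower and 1.37% and 5.22% of all peaks outside them. AP-1 and IRF letters can overlap by the bases TGA.

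**Figure D4:**
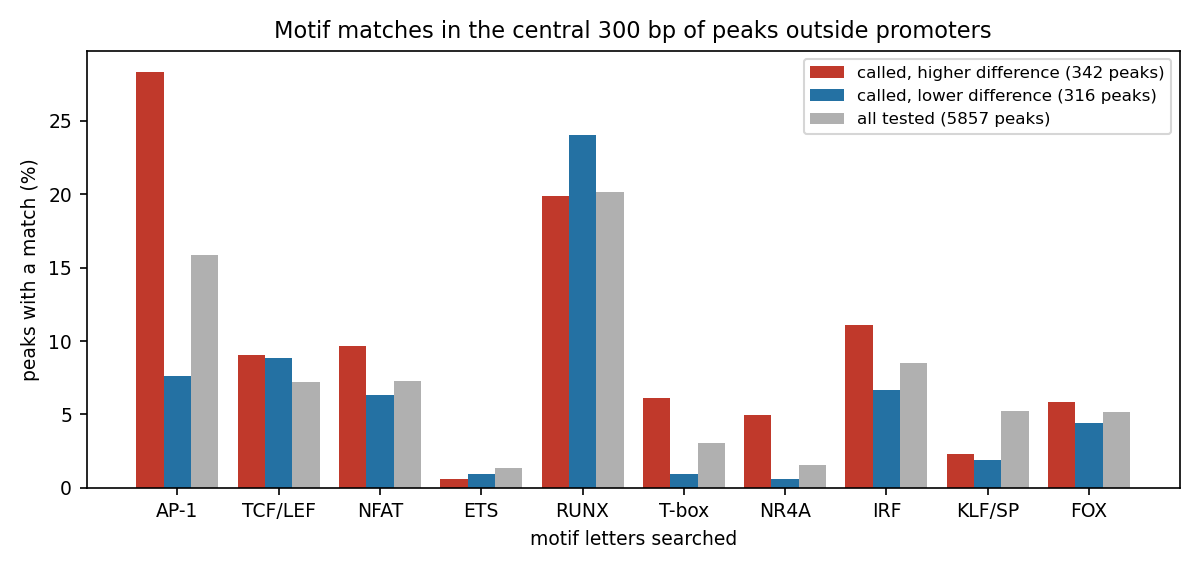
Percent of peaks outside promoters (y axis) whose central 300 bp hold each motif (x axis), for 342 peaks called higher, 316 called lower and all 5857. The AP-1 bars stand at 28.4%, 7.59% and 15.8%, and the T-box and Nr4a bars show the same order at lower levels.

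The central 300 bp of 8 peaks are printed to show what these matches look like in regions that carry the difference. All are read from GRCm39 on the forward strand, in lower case, and capitals mark the letters of a searched motif on either strand. 6 belong to peaks called higher and 2, near Zfp1001 and Tgfbr2, to peaks called lower.
Tigit, chr16:43482120-43482419: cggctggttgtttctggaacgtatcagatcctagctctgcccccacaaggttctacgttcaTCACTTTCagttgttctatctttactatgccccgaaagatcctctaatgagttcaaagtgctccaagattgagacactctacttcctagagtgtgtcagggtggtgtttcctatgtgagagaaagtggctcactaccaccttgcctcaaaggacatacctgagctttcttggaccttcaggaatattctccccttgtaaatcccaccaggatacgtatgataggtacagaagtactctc
Fasl, chr1:161514758-161515057: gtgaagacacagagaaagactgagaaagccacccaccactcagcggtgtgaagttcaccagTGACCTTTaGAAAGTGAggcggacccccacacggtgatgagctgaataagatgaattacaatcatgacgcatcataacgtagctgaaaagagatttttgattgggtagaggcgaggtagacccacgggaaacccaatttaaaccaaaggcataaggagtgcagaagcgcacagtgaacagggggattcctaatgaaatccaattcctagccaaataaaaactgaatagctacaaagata
S1pr1, chr3:115469495-115469794: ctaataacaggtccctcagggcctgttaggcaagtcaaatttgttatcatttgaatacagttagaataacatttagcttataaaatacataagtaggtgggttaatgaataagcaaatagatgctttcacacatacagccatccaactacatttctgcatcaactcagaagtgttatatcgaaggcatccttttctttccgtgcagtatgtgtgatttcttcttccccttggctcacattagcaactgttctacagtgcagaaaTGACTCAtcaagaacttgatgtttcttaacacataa
Hdac4, chr1:92047013-92047312: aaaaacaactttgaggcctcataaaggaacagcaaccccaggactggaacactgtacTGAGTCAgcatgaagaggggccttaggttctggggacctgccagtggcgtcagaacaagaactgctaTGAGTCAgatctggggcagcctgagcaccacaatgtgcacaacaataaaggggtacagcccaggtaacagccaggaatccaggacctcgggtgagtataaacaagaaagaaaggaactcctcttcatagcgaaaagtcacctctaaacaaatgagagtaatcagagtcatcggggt
Cdk17, chr10:93027782-93028081: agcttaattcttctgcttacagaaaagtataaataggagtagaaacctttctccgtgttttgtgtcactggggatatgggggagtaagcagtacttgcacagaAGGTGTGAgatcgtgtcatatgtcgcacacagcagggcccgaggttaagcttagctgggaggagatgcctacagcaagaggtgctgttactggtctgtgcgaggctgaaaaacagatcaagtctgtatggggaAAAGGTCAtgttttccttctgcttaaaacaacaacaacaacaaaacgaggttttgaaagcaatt
Gtsf1l, chr2:162945156-162945455: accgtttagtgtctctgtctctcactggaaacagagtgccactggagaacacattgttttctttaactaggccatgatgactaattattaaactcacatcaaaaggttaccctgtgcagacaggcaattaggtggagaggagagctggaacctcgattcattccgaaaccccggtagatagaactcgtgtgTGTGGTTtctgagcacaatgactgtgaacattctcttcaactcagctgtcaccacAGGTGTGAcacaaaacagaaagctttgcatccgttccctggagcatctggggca
Zfp1001, chr2:150149102-150149401: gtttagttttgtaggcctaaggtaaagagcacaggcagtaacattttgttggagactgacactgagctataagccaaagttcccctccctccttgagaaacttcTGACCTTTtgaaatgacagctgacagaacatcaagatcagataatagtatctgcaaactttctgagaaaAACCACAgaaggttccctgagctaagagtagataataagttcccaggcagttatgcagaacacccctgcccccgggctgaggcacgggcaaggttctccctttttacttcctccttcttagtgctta
Tgfbr2, chr9:116198173-116198472: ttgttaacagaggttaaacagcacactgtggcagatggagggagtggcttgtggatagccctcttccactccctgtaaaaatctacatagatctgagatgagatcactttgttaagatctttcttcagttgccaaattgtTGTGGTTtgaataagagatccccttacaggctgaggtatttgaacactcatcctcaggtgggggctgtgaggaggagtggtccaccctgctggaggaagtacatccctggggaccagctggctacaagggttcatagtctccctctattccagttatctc
The Tigit window held 1 IRF match, at position 62 counted from its 5′ end, and the Fasl window an Nr4a match at 62 and an IRF match at 71. The S1pr1 window held an AP-1 match at 265 and the Hdac4 window had AP-1 matches at 58 and 125. The Cdk17 window had a T-box match at 104 and an Nr4a match at 237, and the Gtsf1l window a RUNX match at 192 and a T-box match at 247. The windows of the lower peaks held RUNX letters, at 174 near Zfp1001, beside an Nr4a match at 105, and at 141 near Tgfbr2. A match describes the letters only, and no match says only that these letters are not in the window.

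A second test asked whether the difference between the arms is larger in C5 than in the PD1- cells of mated mice of the same arms: the step from C4 to C5 in S+P mice minus the step from C1 to C5 in N+P mice, where the unmated groups cancel out. It uses the same S+P C5 and N+P C5 libraries. It called 80 of 13527 peaks (0.591%), 56 higher and 24 lower, and 117 (0.865%) passed the adjusted p at any fold. Of the 411 higher C5 peaks 41 (9.98%) were called higher here, and of the 396 lower ones 5 (1.26%) lower, against 0.414% and 0.177% of all peaks. With PD1- cells in place of C5, the difference between the arms had medians of 0.69 and -0.54 over these peaks, against 1.29 and -1.12 in C5. It was above 0 in 89.5% of the higher and 4.80% of the lower peaks, against 49.7% of all. The Naive and Sensitized libraries that helped choose the peaks enter it, so these values only describe them. Same-numbered libraries of the 2 gates deviated from their group means together. The correlation of deviations ran from 0.11 to 0.40 for C1 and C5 and from 0.10 to 0.57 for C4 and C5. With that number within each arm as a replicate block, a fit of only the 14 libraries of the step called 519, 218 higher and 301 lower. The same 14 libraries without the block called 211. edgeR's quasi-likelihood test without the block called 0, with 1027 peaks at an unadjusted p under 0.05, against 1095 in DESeq2. Without 1 library the count ran from 26 (S+P C5 replicate 2) to 154 (S+P C4 replicate 1). It was 135 without S+P C5 replicate 1, 46 and 31 without N+P C1 replicates 1 and 2, and 49, 29 and 28 without N+P C5 replicates 1, 2 and 3. The S+P C5 and N+P C5 libraries also chose the peaks named above, so their values here are a description with no test. Without the block, the 10 on the higher side had 0.61 to 2.85 and the 10 on the lower side -1.04 to -0.27. Of these, 7 and 0 had an adjusted p under 0.1. In the fit with the block the 2 sets had 0.52 to 3.07 and -1.05 to -0.26, with 9 and 7 under 0.1. The Tigit peak had 1.41 ± 0.35 without and 1.40 ± 0.38 with the block, that of Tlk1 2.39 ± 0.52 and 2.35 ± 0.39, and that of Shc4 0.61 ± 0.45 and 0.52 ± 0.57. For the Tox2 promoter the values were 1.76 ± 0.46 and 1.74 ± 0.22, and for the distal Tgfbr2 peak -0.95 ± 0.25 and -0.94 ± 0.14. Satb1 had -1.41 ± 0.39 and -1.43 ± 0.19, and the higher S1pr1 peak 0.11 ± 0.34 and 0.11 ± 0.27. In the fit with the block these values stayed near where they were, and 5 of these 7 errors were smaller. That fit also used 14 libraries in place of 25, so the block and the set of libraries changed together. For a distal peak nearest to Rplp1 (chr9:61627167-61627881), S+P C5 had 262, 370, 321 and 241 and the other 3 groups of the C5 difference at most 68.8. Its values were 2.91 ± 0.57 (adjusted p 0.000177) in the C5 difference, where loess offsets gave 1.69, and 3.10 ± 0.59 without and 3.25 ± 0.53 with the block in the step between the gates.

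The number of called peaks moved with single libraries. Without 1 library at a time it ran from 395 to 1623. It was 1623 without Sensitized replicate 1 and 1321 without Naive replicate 3. It was 523 without Naive replicate 1, 395 without Naive replicate 2, 458 without Sensitized replicate 4 and 500 when S+P C5 replicate 2 was left out. The 8 other libraries moved it by less than 1.5 times. Leaving out Sensitized 3 and 4 together gave 319, 231 of which were among the 807 in the same direction.

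**Figure D5:**
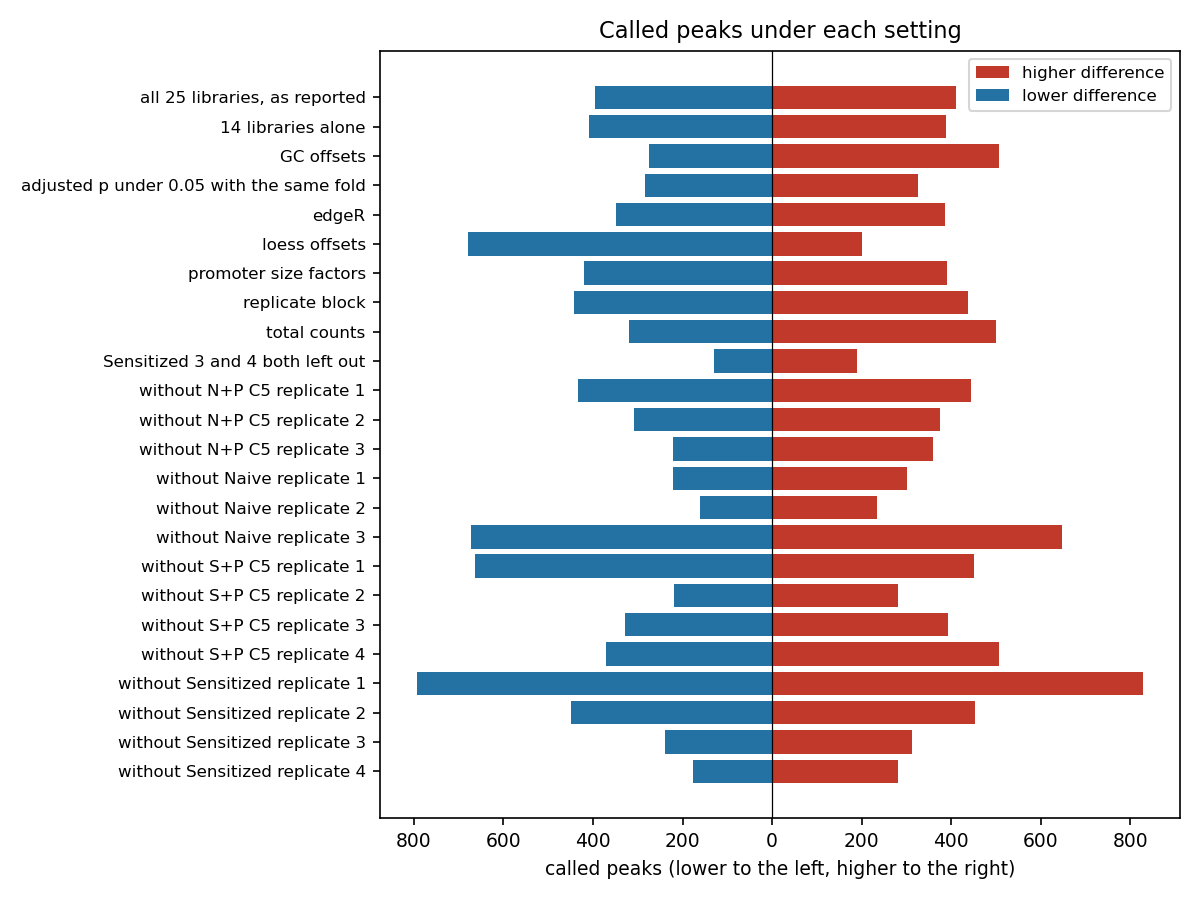
Called peaks of the C5 difference (x axis, lower to the left and higher to the right of 0) under each setting (y axis), from all libraries as reported (411 higher, 396 lower) to fits without 1 library. The bars are longest without Sensitized replicate 1 (829 and 794) and shortest without Sensitized 3 and 4 (190 and 129), and loess offsets give the most uneven split (201 and 679).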

How the data were processed

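Sorted CD8+ T cells were profiled by ATAC-seq in 1 paired-end run. Per the labels and the study's methods, the authors trimmed reads with cutadapt (3.4), aligned them to GRCm39 with Bowtie2 (2.2.9), removed reads that did not map uniquely and duplicates (Picard 2.21.8), called peaks with Genrich (0.6.1), kept reproducible peaks per group and merged them with bedtools (2.27.1). They deposited raw counts per merged peak and library, made with deepTools. The deposited peak lists per group also carry a score, which was not used: only the positions were. Reads came without molecular identifiers.

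The counts of all 13527 peaks and 25 libraries were fitted in DESeq2 (1.42.0, R 4.3.3), with 1 coefficient per group, median-of-ratios size factors and Wald tests of contrasts. Calls needed a Benjamini-Hochberg adjusted p under 0.1 and an absolute log2 difference over 0.9. The code was tested on simulated data. Alternatives were edgeR (4.0.16), other scalings, filters and thresholds, a replicate block, and fits without single libraries. Peaks were given to the gene with the nearest start in GENCODE vM39. The promoter class is a start of any protein-coding transcript within 1000 bp, so it can hold peaks far from the gene's first start. Python 3.11.15, pandas 2.3.3, numpy 2.4.6, scipy 1.17.1, pysam 0.24.0 and limma 3.58.1 were used.

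Genes named in the text were the 10 peaks per direction with the smallest adjusted p among those called in all 14 fits without 1 library (1 per nearest gene), up to 4 peaks of each gene list with the smallest p, and the peak with the smallest p of each of a panel of genes. Other genes are said to be chosen after their values were seen. Members and lists were chosen with earlier results of these data known. The sources tie replicate numbers to no animals, so p-values measure the spread between these libraries. Total counts set the precision, and S+P C5 replicate 2 was the shallowest.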

Additional observations from a re-analysis of the deposited data

Results flagged for a closer look

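The difference between the arms was itself tested, and it called 807 peaks for C5 and 80 for the step between the gates. Both counts moved by over 1.5 times with single libraries. Under the other scalings the C5 count was 782 to 880 and its split between higher and lower moved, and the count for the step between the gates was 61 to 133. For that step edgeR called 0. A fit of its 14 libraries with a replicate block within each arm called 519 (218 higher, 301 lower).

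In 9 of 120 groups of 4 libraries, 1 library stood far from the other 3 by Dixon's criterion, which chance alone meets in about 1 in 20 groups. In S+P C5, replicate 2, the shallowest library, was the highest at the peaks near Cyrib (653.6 normalized counts) and Ets1 (714.8) and the lowest at those near Tiam1 (156.1) and Uqcrb (483.7). S+P C5 replicate 4 was the highest at the Nfat5 promoter (415.0). In Sensitized, replicate 1 was the highest at the Kmt2a peak (137.9) and the lowest at the Uqcrb promoter (503.6), replicate 2 was the lowest at the Stat5b peak (324.0), and replicate 4 was the highest at the peak near Atp5po (33.6). The peaks near Cyrib, Tiam1, Ets1, Kmt2a and Atp5po were called in each fit without 1 library. That of Uqcrb kept its call in 6 of 14 and was -0.73 without Sensitized 3 and 4, under the fold required. Under loess offsets the peak near Atp5po was 1.15 (adjusted p 0.294).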

How the results depend on the processing

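For the C5 difference, 807 peaks were called (411 higher, 396 lower). Leaving out 1 library gave 395 (without Naive replicate 2) to 1623 (without Sensitized replicate 1), with 235 to 829 higher and 160 to 794 lower. Without Sensitized 3 and 4 there were 319 (190 and 129), under loess offsets 201 higher and 679 lower, and without a fold threshold 4225 (2025 and 2200). The cause was not tested. The other settings gave 609 to 880. Total counts gave 61.0% higher and GC offsets, an alternative chosen after seeing the data like switching off the outlier filter, 64.7%, against 50.9%.

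The step between the gates gave 80 calls (56 and 24), and 26 to 154 without 1 library (21 to 119 higher, 2 to 80 lower). It gave 211 (134 and 77) from its 14 libraries alone, 133 (94 and 39) under GC offsets, 42 (34 and 8) at an adjusted p under 0.05, 30 higher under loess offsets, 85 higher under total counts, 49 lower without a fold threshold and 0 (0 and 0) in edgeR.

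The replicate number as a block gave 880 calls for C5, where same-numbered libraries of mated and unmated groups share only a number (correlations of deviations from -0.61 to 0.36), and 2 of 3 N+P C5 and 1 of 4 S+P C5 libraries correlated best with their own number. For the step between the gates, the block gave 171 (121 and 50). Numbered within each arm, in a fit of its 14 libraries alone, it gave 519 (218 and 301).

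Of the named peaks, 2317 values under alternatives kept their direction and side of the threshold, 57 fell below it, 38 passed it and 6 changed sign. All 6 were at the Nfat5 promoter: 0.014 under total counts, 0.0056355 without Sensitized 3 and 4, and -0.17 to 0.071 without 1 library. In N+P C5 against Naive, 3824 peaks passed the filter on low counts.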
